A study of Mus musculus with 4 samples.

Results

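The claudins and the numbered cadherins were examined in kidney cells of chimeric mouse embryos taken on embryonic day 15.5. Members were chosen by name alone, as genes whose annotated symbol is Cldn or Cdh followed by a number, on probe sets with a single gene symbol. Of 18194 genes measured, 41 were members, 20 claudins and 21 cadherins. Each was read from its brightest probe set on Affymetrix whole-genome mouse arrays. The first group held GFP-positive kidney cells labelled Tfrc-/-, descended from 3 to 5 embryonic stem cells placed into each wildtype blastocyst. The second held the GFP-negative wildtype cells parted from them by fluorescence-activated sorting. Both groups had been exposed to collagenase and to trypsin with EDTA before the sort, and each was measured on 2 arrays. GFP-positive cells with intact Tfrc were not analysed here, so the deletion cannot be told apart from the donor cell line, the GFP transgene or the growth of donor cells in a host embryo.

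Tight junctions seal the space between epithelial cells, and claudins are the membrane proteins that form their strands. Which claudins a tubule segment makes sets whether ions and water can pass between its cells, so that claudins act as markers of nephron segments as well as of the epithelial state. Classical cadherins hold cells together through calcium-dependent contacts and are tied to actin through catenins. E-cadherin marks epithelia, VE-cadherin endothelium, and N-cadherin and cadherin 11 mesenchyme, and in the kidney a change from mesenchymal to epithelial cadherins accompanies the formation of each nephron.

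The label was checked first. Tfrc read 2509 and 3175 on the arrays labelled Tfrc-/-, against 1759 and 2348 on the wildtype arrays, on the brightest of its 6 probe sets. Of the 6, 5 had a higher mean on the arrays labelled Tfrc-/-, and the other, with a difference of -0.22, was above the control level on no array. The labels do not say which exons were removed, and probes beyond a deletion cannot check it. Median intensities of the 4 arrays lay between 17.5 and 19.3. The control level of an array, the top value among 27 bacterial control probe sets, lay between 7.18 and 9.08. Intensities are RMA values on a linear scale, differences are on the log2 scale, and intensities of different genes are not set against each other. Sums over marker lists, given per array, follow their brightest genes, such as Hnf4a for proximal tubule and Col1a1 and Col3a1 for stroma. The number of arrays limits the precision, since 2 arrays against 2 cannot give an exact two-sided permutation p below 0.33.

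Most epithelial claudins and cadherins had a lower mean on the arrays labelled Tfrc-/-, mesenchymal cadherins were level or slightly higher, and none of the 41 members passed the test. Of 17 members typical of kidney epithelium, 13 had a lower mean, as did 42.5% of all genes. This grouping was made with earlier results of these data known, and Cldn11, higher without overlap, lies outside it. Of the 17, 8 lay lower with no overlap between groups and 0 higher. Among all genes, 14.3% lay lower and 20.6% higher without overlap. The 8 were Cldn3, Cldn4, Cldn7, Cldn8, Cdh1, Cdh3, Cdh6 and Cdh16. Over all 41 members, 9 lay lower and 6 higher without overlap. The 6 were Cldn11, Cdh7, Cdh10, Cdh11, Cdh18 and Cdh20. Of these, only Cldn11 and Cdh11 were above the control level on every array. Among the 26 members above it on every array, 9 lay lower and 2 higher without overlap. With limma and Benjamini-Hochberg adjustment over all genes, 0 members had an adjusted p under 0.05, as did 0% of all genes. An unadjusted p under 0.05 was seen for 7 members on the lower and 2 on the higher side, and for 3.98% of all genes lower and 4.03% higher, 8.02% in all. The smallest adjusted p of a member was 0.212, for Cldn8.

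Claudins of the distal nephron and collecting duct stood lowest. Cldn8, a claudin that tightens the collecting duct, read 497 and 377 on the arrays labelled Tfrc-/-, against 1032 and 1061 on the wildtype arrays. The wildtype arrays lay close together, and both arrays labelled Tfrc-/- stayed well under them. The log2 difference of Cldn8 was -1.27 (SE 0.22), a 2.42-fold lower level (limma adjusted p = 0.212). Cldn3, which seals tight junctions of the same segments, read 46.9 and 36.4 on the arrays labelled Tfrc-/-, against 143 and 75.5 on the wildtype arrays. The groups did not overlap, but the wildtype arrays stood further from each other than the nearest arrays of the groups did. The difference of Cldn3 was -1.33 (SE 0.35, limma adjusted p = 0.402). Its brightest probe set is of a kind whose probes can bind related transcripts, and 2 further Cldn3 probe sets above the control level gave -0.99 and -1.65. Cldn7, found along the whole duct epithelium, read 602 and 538 on the arrays labelled Tfrc-/-, against 1005 and 902 on the wildtype arrays. Each group was tight and the groups stood apart, with a difference of -0.74 (SE 0.19, limma adjusted p = 0.381). Cldn4, which pairs with Cldn8 in the collecting duct, was dim on all arrays, at 8.45 and 7.86 on the arrays labelled Tfrc-/-, against 12.3 and 15.2 on the wildtype arrays. It lay lower without overlap by 0.75 on the log2 scale, and the arrays labelled Tfrc-/- were close to the control level. These are bulk samples of sorted cells, in which fewer cells of a type and less RNA per cell cannot be told apart. Markers of the ureteric bud and collecting duct were lower in 11 of 12 genes, 6 without overlap, and each of the 12 was above the control level on some array. Their summed intensity was 2327 and 3071 on the arrays labelled Tfrc-/-, against 6290 and 6705 on the wildtype arrays. Among them Ret, the receptor of the bud tip, named after its values were seen, read 104 and 65.1 on the arrays labelled Tfrc-/-, against 1057 and 789.6 on the wildtype arrays. Ret had the largest difference of the 12. Groups overlapped for Aqp2 (-0.92), Krt8 (-0.45), Wnt11 (-0.37), Tfap2b (-0.23), Hoxb7 (-0.03) and Wnt7b (0.07). As background for this and later marker counts, 14.3% of all genes lay lower and 20.6% higher without overlap. The part of ureteric bud and collecting duct cells in the lower duct claudins was not tested. Only Cldn3 and Cldn8 were at least 2-fold lower without overlap, a size reached by 1.51% of all genes in that direction.

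Claudins of other nephron segments gave no common direction. Cldn6, a claudin of immature epithelia, read 849.8 and 593 on the arrays labelled Tfrc-/-, against 1142 and 793.5 on the wildtype arrays. The groups overlapped, and the difference was -0.42 (SE 0.29). For Cldn6 it was -0.43 between the arrays numbered 1 and -0.42 between those numbered 2. The labels do not tie a number to a shared animal or day. Cldn10, which forms ion pores in the proximal tubule and the loop of Henle, read 101 and 61.2 on the arrays labelled Tfrc-/-, against 101 and 141 on the wildtype arrays. Its difference of -0.60 (SE 0.32) averaged -1.21 between the arrays numbered 2 and 0.0046 between those numbered 1. Cldn2, the cation and water pore of the proximal tubule, read 187 and 100.1 on the arrays labelled Tfrc-/-, against 109.6 and 165 on the wildtype arrays. The wildtype values lay inside the others, and the difference was 0.03 (SE 0.38).

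Cldn16, part of the calcium and magnesium pathway of the thick ascending limb, read 43.3 and 30.1 on the arrays labelled Tfrc-/-, against 15.3 and 106 on the wildtype arrays. The wildtype arrays enclosed the others on both sides, so the sign of the difference turned between the replicate numbers, being 1.5 in number 1 and -1.81 in number 2. Cldn9, a claudin of young animals, also lay between the wildtype arrays, with 325 and 532 on the arrays labelled Tfrc-/-, against 173 and 681 on the wildtype arrays, and differences of 0.91 and -0.36 in numbers 1 and 2. Of 5 loop and distal tubule markers, the mean was lower for each, with no overlap for 2. Their summed intensity was 1701 and 1416 on the arrays labelled Tfrc-/-, against 2405 and 2391 on the wildtype arrays, and most of it came from Pou3f3. Between the wildtype arrays the 5 markers went different ways, with Umod, Slc12a1 and Kcnj1 higher in replicate 2 and Pou3f3 and Slc12a3 higher in replicate 1. Umod, the uromodulin gene of the thick limb, named after its values were seen, read 71.7 and 85.8 on the arrays labelled Tfrc-/-, against 59.9 and 219 on the wildtype arrays, with the wildtype arrays far apart. Slc12a1, the salt transporter of the thick limb, named likewise, read 154 and 105.4 on the arrays labelled Tfrc-/-, against 142 and 276 on the wildtype arrays. The part of such cells in the Cldn16 and Cldn9 values was not tested. Without wildtype replicate 2, Cldn16 had a difference of 1.24, and without wildtype replicate 1 it had -1.55. Cldn1, of the parietal cells of Bowman's capsule, read 264 and 189 on the arrays labelled Tfrc-/-, against 213 and 179 on the wildtype arrays, and the groups overlapped. A much dimmer Cldn1 probe set, above the control level on all arrays, lay higher without overlap and gave 0.34. Cldn14, an inhibitor of the thick limb pathway, lay just above the control level on all arrays with a difference of 0.03. Cldn19, the partner of Cldn16, was above it on only 1 array of each group. The 12 nephron and duct claudins had a median difference of -0.29, beside 0.04 for all genes tested, with 8 lower and 4 higher means. This median was -0.55 without labelled Tfrc-/- replicate 1, -0.69 without wildtype replicate 1, and -0.16 without probe sets open to cross-binding.

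**Figure D1:**
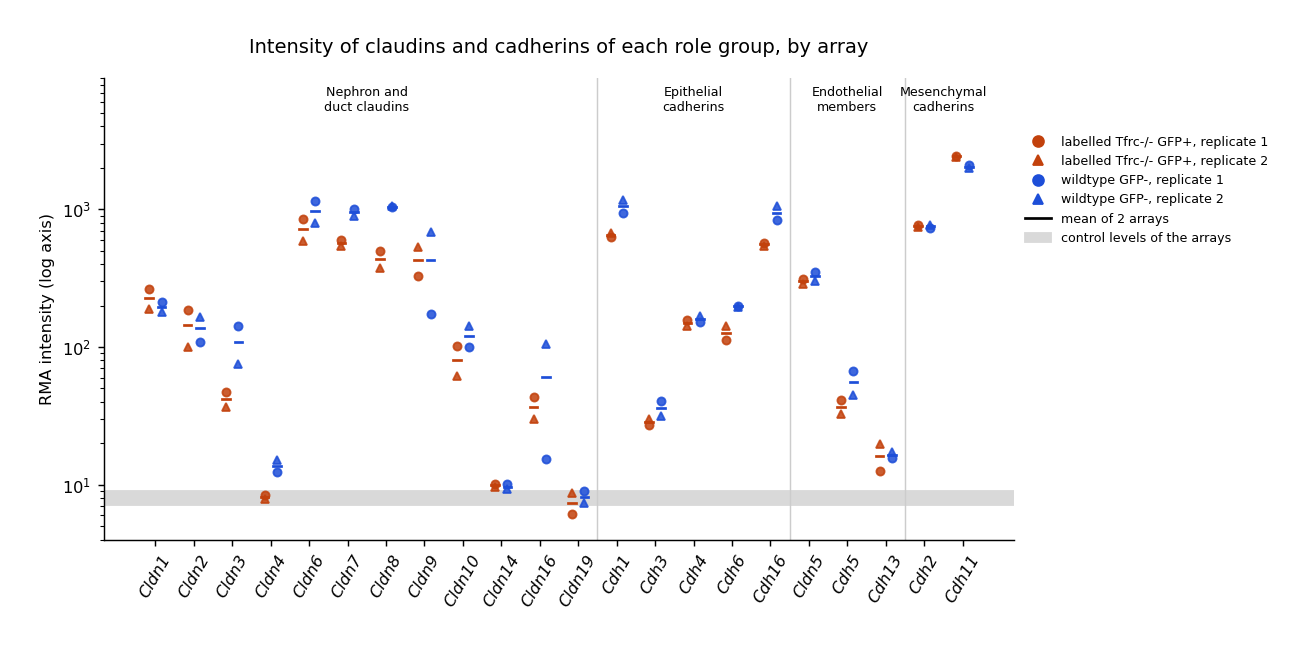
RMA intensity (log axis) of the 22 claudins and cadherins with an epithelial, endothelial or mesenchymal role on each of the 4 arrays, with the mean of the 2 arrays of a group as a short line and the range of the arrays' control levels in grey. Cldn3, Cldn7, Cldn8, Cdh1 and Cdh16 sit lower without overlap on the arrays labelled Tfrc-/-, Cldn9 and Cldn16 have their 2 wildtype arrays far apart, and Cdh2 and Cdh11 lie nearly level.

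Of the epithelial cadherins, the mean of all 5 was lower on the arrays labelled Tfrc-/-, with no overlap for 4. Cdh1, E-cadherin, which holds epithelial cells together, read 629 and 670.4 on the arrays labelled Tfrc-/-, against 941 and 1166 on the wildtype arrays. Its arrays labelled Tfrc-/- were close together and under both wildtype arrays, with a difference of -0.69 (SE 0.20), 1.61-fold lower (limma adjusted p = 0.460). Cdh16, Ksp-cadherin, an adhesion protein made almost only by kidney tubules, read 574 and 539 on the arrays labelled Tfrc-/-, against 831 and 1052 on the wildtype arrays. It gave nearly the same picture, at -0.75 (SE 0.21, limma adjusted p = 0.425). Cdh6, K-cadherin of the forming nephron and proximal tubule, read 113 and 141 on the arrays labelled Tfrc-/-, against 199 and 196 on the wildtype arrays. The difference was -0.65 (SE 0.20), while a dim second Cdh6 probe set, between 8.47 and 13.05 on all arrays, gave 0.30. Cdh3, P-cadherin, read 27.2 and 29.9 on the arrays labelled Tfrc-/-, against 40.9 and 31.8 on the wildtype arrays. Its groups were parted by a narrow gap, and the difference was -0.34 (SE 0.21). Cdh4, R-cadherin, present when mesenchyme turns into tubules, read 157 and 143 on the arrays labelled Tfrc-/-, against 153 and 168 on the wildtype arrays, and the groups overlapped.

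The median of the 5 epithelial cadherins was -0.65, beside 0.04 for all genes, and it was -0.17 when all probe sets of a gene were averaged. All 5 proximal tubule markers had a lower mean, 3 without overlap, with a sum of 1915 and 1846 on the arrays labelled Tfrc-/-, against 1877 and 2338 on the wildtype arrays. The part of tubule and duct cells in the epithelial cadherin values was not tested. Of 5 early nephron markers, 1 had a lower and 4 a higher mean, with 1 lower and 1 higher without overlap. Of 6 nephron progenitor markers, 5 had a lower mean, 1 of them without overlap. The 4 measured podocyte markers had 2 lower and 2 higher means, as did the 4 measured neural and Schwann markers. Leukocyte markers had 2 lower and 4 higher means. The part of these cells in the member values was not tested either.

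Endothelial members differed among themselves. Cdh5, VE-cadherin, the adhesion protein of endothelial junctions, read 41.1 and 32.7 on the arrays labelled Tfrc-/-, against 67.0 and 44.5 on the wildtype arrays. It lay lower without overlap, by 0.58 on the log2 scale (SE 0.27), and its second probe set, near the control level, gave -0.08. Cldn5, the claudin of endothelial tight junctions, also made by podocytes, read 314 and 288.5 on the arrays labelled Tfrc-/-, against 351 and 304 on the wildtype arrays. The groups overlapped and the difference was -0.12 (SE 0.19). Cdh13, T-cadherin, a lipid-anchored cadherin of vessels, read 12.5 and 19.8 on the arrays labelled Tfrc-/-, against 15.7 and 17.3 on the wildtype arrays, with the wildtype values inside the others. The median of the 3 was -0.12. It was -0.18 and -0.40 without labelled Tfrc-/- replicates 1 and 2, and -0.14 and -0.22 without wildtype replicates 1 and 2. All 10 endothelial markers had lower means and 5 lay lower without overlap, with a sum of 3111 and 2497 on the arrays labelled Tfrc-/-, against 4444 and 3804 on the wildtype arrays. Their part in the Cdh5 value was not tested.

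Mesenchymal cadherins stood almost level. Cdh11, the main cadherin of loose mesenchyme, read 2448 and 2414 on the arrays labelled Tfrc-/-, against 2089 and 2001 on the wildtype arrays. Both groups were tight and did not overlap, yet the difference was small, at 0.25 (SE 0.18, limma adjusted p = 0.865). A second Cdh11 probe set, at 1628 and 1688 on the arrays labelled Tfrc-/-, against 1584 and 1993 on the wildtype arrays, overlapped and gave -0.10. Cdh2, N-cadherin, made by mesenchyme and by nephron progenitors and proximal tubule, read 773 and 747 on the arrays labelled Tfrc-/-, against 727 and 776 on the wildtype arrays. The difference was 0.02 (SE 0.18), and a dimmer Cdh2 probe set without overlap gave 0.39. Stromal markers were higher in 10 of 10 genes, 8 without overlap, with a sum of 16340 and 14280 on the arrays labelled Tfrc-/-, against 12930 and 9065 on the wildtype arrays. Their part in the Cdh11 value was not tested.

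Whether cadherins of the 3 cell classes differed from each other was tested on the arrays directly. The difference of Cdh1 lay 0.94 below that of Cdh11 on the log2 scale, with both arrays labelled Tfrc-/- under both wildtype arrays. The exact permutation test gave a two-sided p of 0.33, the smallest possible here (0.50 after Benjamini-Hochberg adjustment over the 3 comparisons). The difference of Cdh5 lay 0.83 below that of Cdh11, again with the exact p at its floor of 0.33, and 0.40 below it when probe sets were averaged. Cdh1 and Cdh5 differed by -0.11 with an exact permutation p of 1, and the sign turned without labelled Tfrc-/- replicate 1 (0.10) and without wildtype replicate 2 (0.33). No comparison of 2 arrays against 2 can pass 0.05 in this test.

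**Figure D2:**
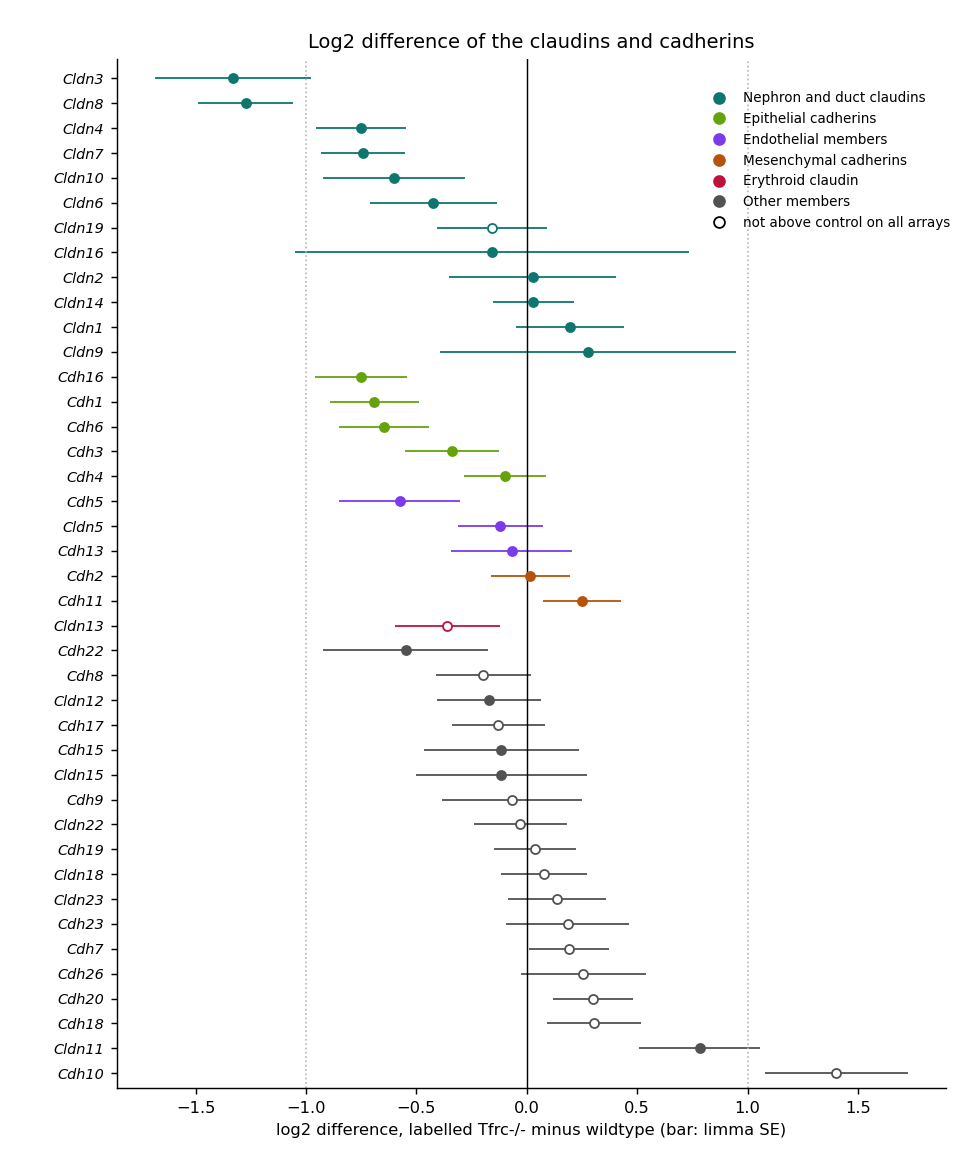
Log2 difference of each of the 41 members, arrays labelled Tfrc-/- minus wildtype arrays, grouped by role, with the limma standard error as a bar, open symbols for members not above the control level on all 4 arrays and dotted lines at a 2-fold difference. Cldn3 at -1.33 and Cldn8 at -1.27 lie past the lower line, and Cdh10 at 1.40, an open symbol, past the upper one.

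Of the other members, Cldn11 had the largest positive difference among those above the control level on all arrays. It forms the tight junctions of myelin and of Sertoli cells, and it read 1495 and 2343 on the arrays labelled Tfrc-/-, against 1016 and 1164 on the wildtype arrays. The groups did not overlap, although the arrays labelled Tfrc-/- were far apart, and the difference was 0.78 (SE 0.27, limma adjusted p = 0.546). It was 0.56 between the arrays numbered 1 and 1.01 between those numbered 2. Cldn12, a broadly expressed claudin that lets calcium through, read 616.5 and 869 on the arrays labelled Tfrc-/-, against 824.5 and 824 on the wildtype arrays, and overlapped. Cdh10, a cadherin of neurons, read 19.9 and 11.6 on the arrays labelled Tfrc-/-, against 6.66 and 4.98 on the wildtype arrays. Both wildtype arrays lay below the control level, so Cdh10 was at least 1.89-fold higher (limma adjusted p = 0.323), and its other 3 probe sets were below that level on all arrays. It was the only member at least 2-fold higher without overlap by fitted difference, against 1.15% of all genes. The number was 2 without labelled Tfrc-/- replicate 1, 3 without wildtype replicate 2, and 0 with probe sets averaged.

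The remaining members were dim or overlapped. Cdh22, a brain cadherin, had a difference of -0.55 and Cdh15, M-cadherin of muscle precursors, of -0.12, each with overlap. Cldn15, a sodium pore of the gut, stood at -0.11 with overlap. Cldn13, which mouse erythroid cells are known to make, read 7.86 and 6.13 on the arrays labelled Tfrc-/-, against 7.86 and 10.1 on the wildtype arrays, at the edge of detection. Cldn13 overlapped between groups. All 5 measured erythroid markers, of 7 listed, lay lower without overlap, although Epb42 was below the control level on every array, with a sum of 76.0 and 47.0 on the arrays labelled Tfrc-/-, against 611 and 1914 on the wildtype arrays. Their part in the Cldn13 value was not tested. Cdh9, Cdh17, Cdh18 and Cdh19 were above the control level on no array. Cldn18, Cldn22, Cldn23, Cdh7, Cdh8, Cdh20, Cdh23 and Cdh26 were above it on 1 to 3 arrays, with differences between -0.20 and 0.30. In all, 26 members were above the control level on every array and 32 on both arrays of at least 1 group. The 18 other members had a median of 0.06.

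The 2 arrays that share a replicate number gave differences of the same sign for the duct claudins and E-cadherin. Between the arrays numbered 1 and those numbered 2, the difference was -1.05 and -1.49 for Cldn8, -1.61 and -1.05 for Cldn3, and -0.74 and -0.75 for Cldn7. It was -0.58 and -0.80 for Cdh1, -0.53 and -0.97 for Cdh16, and 0.23 and 0.27 for Cdh11. The groups of these members did not overlap, so any pairing of the arrays gives the same sign. The equal signs are therefore no further evidence. Over members above the control level on all arrays, the median absolute difference between replicates was 0.38 for the arrays labelled Tfrc-/- and 0.31 for the wildtype arrays. Cldn7, Cldn8, Cdh1 and Cdh16 differed by more than that between groups, and Cdh2, Cdh4, Cldn5 and Cdh11 by less. Cldn6, Cldn10 and Cdh22 also differed by more, yet their groups overlapped, while those of Cdh11 did not.

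**Figure D3:**
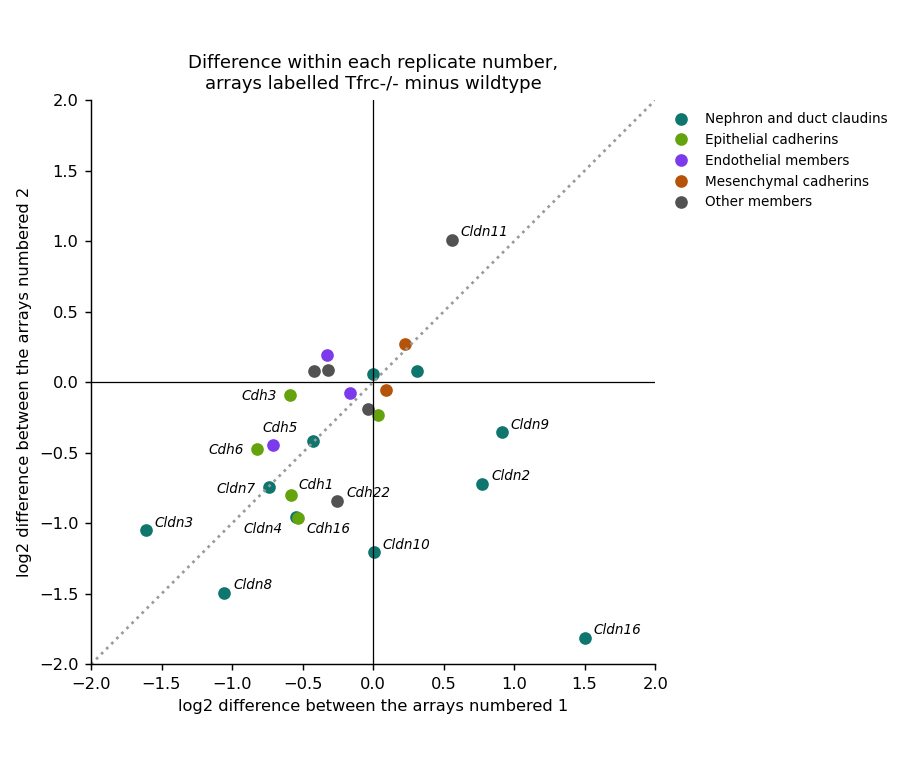
Log2 difference, arrays labelled Tfrc-/- minus wildtype, between the arrays numbered 1 (x axis) and between those numbered 2 (y axis), for the 26 members above the control level on all 4 arrays, coloured by role. Cldn3, Cldn4, Cldn7, Cldn8, Cdh1, Cdh6 and Cdh16 lie in the lower left, Cldn11 in the upper right, and Cldn2, Cldn9 and Cldn16 in the lower right, where the sign turns between the numbers.

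Some members lie side by side in the genome. In the RefSeq gene table of assembly GRCm38.p6, 10 members lie on chromosome 8 and 5 on each of chromosomes 5 and 16. Cldn3 and Cldn4 are neighbouring protein-coding genes on chromosome 5, and their differences were -1.33 and -0.75. Cdh1 and Cdh3 are neighbours on chromosome 8, with -0.69 and -0.34. Other neighbours stood on opposite sides of 0. Cdh5 and Cdh11, adjacent on chromosome 8, had -0.58 and 0.25, Cldn6 and Cldn9 on chromosome 17 had -0.42 and 0.28, and Cldn16 and Cldn1 on chromosome 16 had -0.16 and 0.20.

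Promoter sequence was set beside these values because Snai and Zeb proteins, which repress epithelial junction genes, bind the 6-base E-box CACCTG. RefSeq promoters of GRCm38.p6 were matched by symbol for 27 of the 41 members, and the 250 bases before each start were searched on both strands, where the other strand reads CAGGTG. A match is a string of letters and not a shown binding site. Of 37 member starts, 6 (16.2%) held a match, beside 17.2% of all 32851 starts listed, so the share was near the background. The 27 do not include Cldn8, Cdh1 or Cdh16, so this share says nothing of them. The members with a match were Cldn4, Cldn6, Cldn7, Cldn14 and Cdh7. Cldn4, Cldn6 and Cldn7 had a lower mean on the arrays labelled Tfrc-/-, Cldn6 with overlap. Cldn14 (0.03) and Cdh7 (0.19, above the control level on 1 array) did not, and their sequences are not shown. The sequences below show 4 claudins with a lower mean on the arrays labelled Tfrc-/- and Cldn11, which read higher there, 5′ to 3′ on the strand of the gene, with matches in capitals.
Cldn3 (chr5:134985964-134986213, plus strand): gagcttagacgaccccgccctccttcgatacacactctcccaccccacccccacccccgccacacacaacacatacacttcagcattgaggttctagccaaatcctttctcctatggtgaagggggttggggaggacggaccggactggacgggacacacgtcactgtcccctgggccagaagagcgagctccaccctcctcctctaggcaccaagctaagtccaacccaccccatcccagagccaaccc
Cldn4 (chr5:134946935-134947184, minus strand): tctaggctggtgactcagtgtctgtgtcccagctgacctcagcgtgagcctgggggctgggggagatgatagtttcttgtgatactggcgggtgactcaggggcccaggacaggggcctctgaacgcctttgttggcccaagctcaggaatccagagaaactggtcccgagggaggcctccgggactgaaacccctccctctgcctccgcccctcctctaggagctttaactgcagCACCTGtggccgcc
Cldn6 (chr17:23679115-23679364, plus strand): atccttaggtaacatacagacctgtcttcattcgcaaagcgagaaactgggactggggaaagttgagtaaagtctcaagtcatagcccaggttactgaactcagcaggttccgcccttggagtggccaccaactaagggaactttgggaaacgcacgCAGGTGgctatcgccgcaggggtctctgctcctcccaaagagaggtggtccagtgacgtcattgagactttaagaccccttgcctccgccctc
Cldn7 (chr11:69965312-69965341, plus strand), match 1: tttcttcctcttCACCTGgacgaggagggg
Cldn7 (chr11:69965352-69965381, plus strand), match 2: agacttccggttCAGGTGagtgtcccttca
Cldn11 (chr3:31149670-31149919, plus strand): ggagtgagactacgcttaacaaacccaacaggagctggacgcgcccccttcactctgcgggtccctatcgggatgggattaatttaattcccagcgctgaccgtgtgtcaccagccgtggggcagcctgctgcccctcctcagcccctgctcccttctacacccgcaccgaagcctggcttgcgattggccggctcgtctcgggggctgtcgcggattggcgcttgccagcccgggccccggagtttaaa
For Cldn7 only the 30 bases around each match are shown, from the later of its 2 listed starts, since that window lies downstream of the earlier start. Counting the base before the start as -1, the Cldn7 matches begin at -97 and -57, that of Cldn6 at -93 and that of Cldn4 at -14. Cldn3, with the lowest difference of all members, held no match in these letters, nor did Cldn11.

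The proteins that link cadherins to the cell skeleton differed in part. Of 14 catenins and linkers, 0 passed the test, and the median was -0.11. Without overlap, 7 lay lower and 3 higher, beside 14.3% and 20.6% of all genes. Ctnnd2, a p120-family catenin, read 76.8 and 68.8 on the arrays labelled Tfrc-/-, against 217.5 and 212 on the wildtype arrays, a difference of -1.56 (SE 0.18, limma adjusted p = 0.122). Jup, plakoglobin, which serves both adherens junctions and desmosomes, read 233 and 173 on the arrays labelled Tfrc-/-, against 898 and 537 on the wildtype arrays, a difference of -1.79 (SE 0.32, limma adjusted p = 0.218). In both genes the groups stood far apart. Ctnnal1, alpha-catulin, and the adhesion gene Nectin1 had differences of -0.45 and 0.43. Ctnnb1, beta-catenin, named after its values were seen, was level, with 6599 and 6285 on the arrays labelled Tfrc-/-, against 6424 and 6551 on the wildtype arrays. Of the 7 desmosomal cadherins listed, 5 were measured, all with a lower mean, with 0 past the test and a median of -0.14. Of these, Dsg1a was above the control level on no array, Dsc1 on 1 and Dsc3 on 2, and all 3 overlapped. Dsc2 and Dsg2, the desmosomal cadherins of simple epithelia, lay lower without overlap by 1.23 and 0.99 on the log2 scale (limma adjusted p = 0.300 and 0.372).

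Partners of claudins in the tight junction were lower more often than higher. Of 23 listed, 21 were measured, 15 had a lower and 6 a higher mean, 0 passed, and the median was -0.28. Without overlap, 7 lay lower and 2 higher, beside 14.3% and 20.6% of all genes. F11r, the junctional adhesion molecule of epithelia, read 69.3 and 41.2 on the arrays labelled Tfrc-/-, against 145 and 126 on the wildtype arrays, a difference of -1.34 (SE 0.30, limma adjusted p = 0.309). Cgn, cingulin, a cytoplasmic plaque protein, read 86.7 and 94.4 on the arrays labelled Tfrc-/-, against 154.5 and 195 on the wildtype arrays. Neither gene overlapped between groups. Ocln, occludin, stood at -0.75 and the polarity gene Pard6b at -0.56.

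Regulators of the epithelial state went both ways. Of 14 measured, 0 passed, and the median was 0.09. Without overlap, 3 lay lower and 6 higher, beside 14.3% and 20.6% of all genes. Grhl2, a grainyhead factor that activates Cdh1 and Cldn4, read 195 and 180.2 on the arrays labelled Tfrc-/-, against 664 and 494 on the wildtype arrays, a difference of -1.61 (SE 0.22, limma adjusted p = 0.152). Esrp1, a splicing regulator of epithelia, stood at -1.39 (SE 0.20, limma adjusted p = 0.152). Snai1, a repressor of Cdh1, read 62.6 and 105.5 on the arrays labelled Tfrc-/-, against 23.1 and 32.8 on the wildtype arrays, a difference of 1.56 (SE 0.33, limma adjusted p = 0.297). Twist2, a factor of mesenchyme, stood at 1.32 (SE 0.22, limma adjusted p = 0.212). These 4, taken for the smallest p, did not overlap between groups. Other regulators in the list, named after their values were seen, did not all follow them. Ovol1, a repressor of mesenchymal genes in epithelia, lay higher without overlap at 0.54, and so did Grhl3 at 0.24, which was above the control level on 1 array. Esrp2 and Grhl1, relatives of Esrp1 and Grhl2, overlapped with differences of -0.05 and -0.09. Zeb1 and Snai2 overlapped with differences of 0.02 and 0.16, and Elf3 with -0.47. Twist1 and Zeb2 lay higher without overlap at 0.90 and 0.35. Ovol2, above the control level on 1 array, lay lower without overlap at -0.87.

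**Figure D4:**
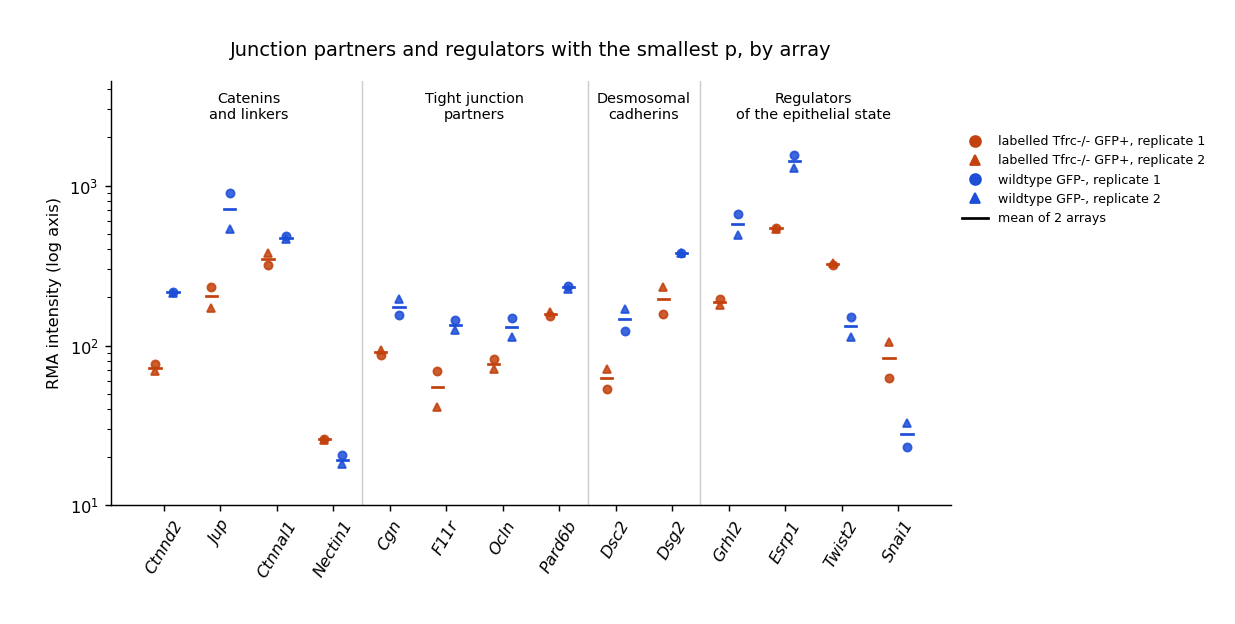
RMA intensity (log axis) on each array of the junction partners and regulators with the smallest p in each of 4 lists (up to 4 genes a list, those above the control level on all arrays), with the mean of 2 arrays as a short line. Nectin1, Twist2 and Snai1 sit higher on the arrays labelled Tfrc-/-, and the other 11 genes sit lower, all without overlap of the groups.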

How the data were processed

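Expression was measured on 4 arrays, 2 of GFP-positive cells labelled Tfrc-/- and 2 of wildtype cells, from 50 ng of total RNA each. The authors deposited probe set intensity values on a linear scale, made with RMA per the submitters' processing notes, which state no version or setting. RMA equalises the arrays, so a shift shared by most genes would be removed.

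The log2 of each deposited value was used for 45101 probe sets. A single symbol was annotated for 34958, and each gene was read from the probe set with the highest mean. Group differences, labelled Tfrc-/- minus wildtype, came from lmFit and eBayes of limma 3.58.1 (R 4.3.3) without a block, with Benjamini-Hochberg adjustment over 18194 genes and a threshold of 0.05. The fit was tested on simulated data with independent noise, which checks that set differences are recovered. It does not test the p-values of these arrays. A fold with 1 group below the control level is a lower bound against that level. The labels call the replicates biological but tie them to no animals, so p-values measure only the spread between these samples, which may be technical in part.

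Members were taken by name alone. The choice of these families, their role groups and the other gene lists was made with earlier results of these data known. Named genes were all members and up to 4 of each partner list with the smallest p. Array values are given for the detected members of the role groups, except Cldn14, and for Cldn11, Cldn12 and Cdh10. Alternatives were the replicate number as a block, each array left out, other probe set rules, a filter on dim genes, an offset of 16, quantile normalization and another variance model. Probe sets with several symbols or none were left out.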

Additional observations from a re-analysis of the deposited data

How the results depend on the processing

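Under all 11 alternatives, 0 members passed an adjusted p of 0.05. With the replicate number as a block, which the labels do not tie to a shared animal or day, the count was also 0, and medians and counts without overlap cannot change. Same-number arrays deviated together (correlation 0.512 over genes, 0.221 over members). Of 32 detected members, 20 kept the sign of their difference under every alternative, among them Cldn3, Cldn4, Cldn7, Cldn8, Cdh1, Cdh6 and Cdh16. The groups of those named did not overlap, so an array left out, the block or another variance model could not turn their sign. The count of epithelial members lower without overlap, an alternative added after seeing the data, ranged from 9 to 12 when an array was left out, which makes overlap rarer by construction, and from 7 to 9 otherwise. Medians with 1 array left out ran from -0.69 to -0.20 for nephron and duct claudins, -0.70 to -0.48 for epithelial cadherins, -0.40 to -0.14 for endothelial members and 0.090 to 0.11 for other members. With probe sets averaged, medians were -0.17 for epithelial cadherins and -0.018 for other members. Other members had -0.11 after the filter on dim genes and 0.018 with the offset. Members at least 2-fold higher without overlap numbered 1 to 3 with an array left out, and 0 with probe sets averaged or with the offset. The Cdh1 minus Cdh5 value ran from -0.56 to 0.33. The sign turned for 12 members with small differences. With an array left out, values ran from -0.046 to 0.44 for Cldn1, -0.43 to 0.48 for Cldn2, -0.71 to 1.27 for Cldn9, -0.42 to 0.077 for Cldn12, -0.035 to 0.093 for Cldn14, -0.55 to 0.32 for Cldn15, -1.55 to 1.24 for Cldn16, -0.04 to 0.20 for Cldn18, -0.082 to 0.36 for Cldn23, -0.031 to 0.064 for Cdh2, -0.40 to 0.26 for Cdh13 and -0.55 to 0.32 for Cdh15. Quantile normalization gave -0.014 for Cldn2 and -0.0072 for Cdh2, and averaging probe sets 0.010 for Cdh13. The cause of these turns was not tested. Members near the control level, such as Cldn4, Cldn13 and Cdh10, are limited by signal over background.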
